A study of Mus musculus with 13 samples.

Results

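Colonocytes of the distal colon that carry RNA of Slc37a2, Atp12a, Tgm3 and Fxyd4 were described in single-cell RNA sequencing data from sorted epithelium of whole mouse colons. A cell was counted as a distal colonocyte when it had at least 500 detected genes, a summed level of the goblet cell genes Muc2, Fcgbp and Zg16 under 30 counts per 10000 (CP10K), and, over the 4 genes named above, at least 3 unique molecules (UMI) and at least 5 CP10K. Of 4183 cells, 437 met this rule. They were 338 of 3415 cells from antibiotic-treated mice and 99 of 768 cells from germ-free mice. The cells were selected on the measured values of these genes, so the levels of the 4 genes are given as a description.

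Both groups were C57BL/6J mice. The antibiotic group is labelled wild type and received antibiotics, and the germ-free group carries no treatment label. The sources used here do not give the antibiotic agents, the dose, the time of treatment, the age or the number of mice. Epithelial cells of the whole colon were released with EDTA, dissociated with Dispase II, pooled by condition, and sorted so that CD44-positive (proliferative) and CD44-negative (differentiated) EPCAM-positive cells entered in equal numbers. The share of a differentiated cell type is therefore set in part by the sort. The labels place the antibiotic libraries in 1 batch and the germ-free libraries in another, and condition and batch therefore cannot be told apart. With 1 pool per condition no test could be made. All intervals below are at the 95% level and cover counting error only, not differences between mice.

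The colon changes along its length. Colonocytes near the caecum are rich in enzymes of lipid and drug metabolism and in carbonic anhydrase 1, whereas those near the rectum recover salt and water under the control of aldosterone and secrete potassium. Among the genes of the rule, Atp12a and Fxyd4 are tied to potassium and sodium transport, and Slc37a2 and Tgm3 are known from other work. Atp12a encodes the catalytic subunit of the colonic proton-potassium pump, which takes up potassium in exchange for protons. Fxyd4 (also known as CHIF) is a small regulator of the sodium-potassium pump that corticosteroids induce. Slc37a2 is a sugar phosphate exchanger of the endoplasmic reticulum. Tgm3 is a transglutaminase best known from the cornified layer of skin, where it links proteins of the cell envelope. Trpv3, a further marker that the rule did not use, is a warmth-sensitive cation channel best known from keratinocytes.

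In the GRCm38 annotation, Slc37a2 lies on chromosome 9 (37227585 to 37255738), Tgm3 on chromosome 2 (130012349 to 130050399), Fxyd4 on chromosome 6 (117933559 to 117937692), Atp12a on chromosome 14 (56365068 to 56388550) and Trpv3 on chromosome 11 (73267388 to 73300363), so these genes are not neighbours. For the rule genes that the RefSeq table holds, the 250 bases before the RefSeq start (GRCm38.p6) are shown on the strand of the gene. They lie at chr9:37255739-37255988 (minus strand), chr2:130012090-130012339 (plus strand) and chr6:117937336-117937585 (minus strand). Capitals mark matches of the TTTATNG core that CDX and HOX13 factors bind, searched on both strands.
Slc37a2: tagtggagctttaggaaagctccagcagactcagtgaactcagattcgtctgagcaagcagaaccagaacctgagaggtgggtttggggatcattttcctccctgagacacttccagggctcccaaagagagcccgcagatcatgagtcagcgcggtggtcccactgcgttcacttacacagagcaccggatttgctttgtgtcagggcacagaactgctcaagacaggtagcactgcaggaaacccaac
Tgm3: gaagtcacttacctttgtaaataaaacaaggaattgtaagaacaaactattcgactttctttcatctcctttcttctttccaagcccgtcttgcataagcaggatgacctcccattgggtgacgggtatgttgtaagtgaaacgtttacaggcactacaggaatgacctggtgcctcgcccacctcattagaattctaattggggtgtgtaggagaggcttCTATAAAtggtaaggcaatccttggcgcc
Fxyd4: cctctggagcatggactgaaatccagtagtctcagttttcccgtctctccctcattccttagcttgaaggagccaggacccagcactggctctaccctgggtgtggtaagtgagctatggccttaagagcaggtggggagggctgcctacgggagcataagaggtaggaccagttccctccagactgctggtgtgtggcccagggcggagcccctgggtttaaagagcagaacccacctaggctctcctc
The 1 match lies 29 bases before the start of Tgm3, on the strand opposite to the gene, and overlaps the letters TATAAA of a TATA box. Of 32851 promoters of the same length, 9.81% hold TTTATNG and 12.4% hold TATAAA. The windows of Slc37a2 and Fxyd4, and those of Trpv3 and of Ano1 (described below), hold none of these letters, nor CAAAGTNCA (the core bound by HNF4, in 1.19% of promoters).

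Cell names carry a condition and a number, which gives cell sets 1, 2 and 3 of the antibiotic pool and 3 and 4 of the germ-free pool. The median distal colonocyte held 12851.5 UMI after antibiotics and 4952 UMI in the germ-free pool, and germ-free cell set 3 was shallow, with 17 distal colonocytes at a median of 1266 UMI, where a single UMI in the sum is worth 38.4 CPM (counts per 1000000 UMI). The antibiotic cell sets were not independent: 810 barcodes occurred in more than 1 of them, and none occurred in both conditions. Of barcodes that cell sets 2 and 3 shared, the deeper copy held a median of 12617 UMI and the shallower 1361 UMI, and their profiles correlated at 0.623 against 0.303 for mismatched barcodes. Among distal colonocytes 43 barcodes were present more than once, so 338 antibiotic cells had 295 distinct barcodes. Mitochondrial genes took 12.7% of the UMI of antibiotic and 18.9% of those of germ-free distal colonocytes, and Gm42418, AY036118 and Lars2 together 10.9% and 5.48%. The part of these values in the results below was not tested unless a value is given.

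Distal colonocytes made up 9.90% of antibiotic cells (exact Clopper-Pearson interval, 8.92 to 10.9%) and 12.9% of germ-free cells (10.6 to 15.5%). By cell set the share was 8.41%, 10.0% and 10.7% in antibiotic sets 1, 2 and 3, and 5.56% and 17.7% in germ-free sets 3 and 4. The germ-free sets thus lay on both sides of all antibiotic sets. Depth moved the share, since the rule asks for 3 UMI: with every cell thinned to 1000 UMI the shares were 3.60% (104 of 2891) and 6.40% (40 of 625).

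**Figure D1:**
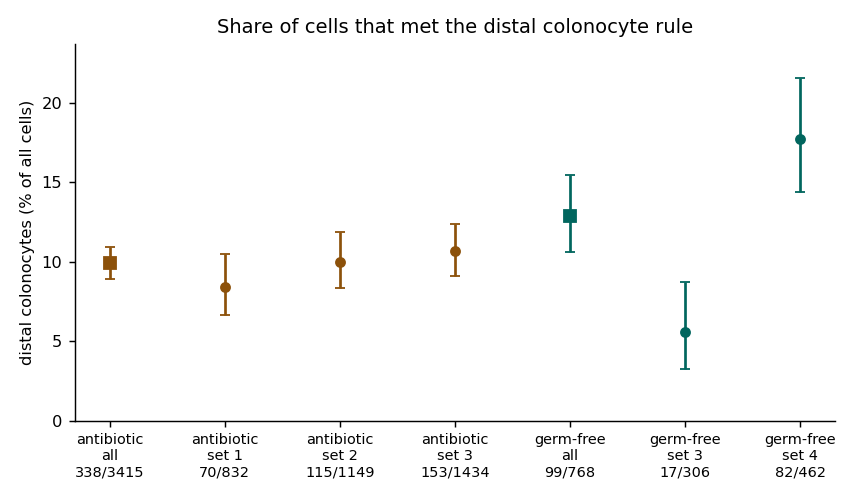
Share of all cells that met the distal colonocyte rule (vertical axis, percent) for each condition (squares) and each numbered cell set (circles), with exact 95% binomial intervals and the cell numbers under each point. The antibiotic sets lie between 8.41% and 10.7%, and the germ-free sets at 5.56% and 17.7%.

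For markers that the rule did not use, distal colonocytes were set beside the other cells. These were the 1953 antibiotic and 409 germ-free cells under the same gene-number and mucus limits with no UMI of the 4 rule genes. Cells that had some UMI of the rule genes but missed the rule were in neither group. Trpv3 was listed as a marker together with the rule genes, with earlier results of these data known. The values therefore describe the cells and are not an independent check of the label. Trpv3 was at 121 CPM with antibiotics and 88.0 CPM in germ-free distal colonocytes, and at 8.36 and 7.55 CPM in the other cells. Hoxb13, the most posterior gene of its homeobox cluster and a mark of the hindgut end, was at 218 and 214 CPM against 31.2 and 65.1 CPM. Markers of other cell types were summed by list. The 10 enteroendocrine genes came to 4.62 CPM with antibiotics and 226 CPM in distal colonocytes of germ-free mice, most of the latter from Gip (described below), and to 23.8 and 289 CPM in the other cells. In distal colonocytes 8 tuft cell genes came to 2.50 and 3.83 CPM in the 2 conditions, 8 squamous genes of the anal canal to 2.89 and 1.91 CPM, 8 immune genes to 0.578 CPM and 0, and 8 stromal genes to 5.97 and 11.5 CPM. The 10 goblet cell genes summed to 433 and 715 CPM, against 490 and 984 CPM in the other cells. They include Muc2, Fcgbp and Zg16, which the mucus limit capped in both groups of cells, so this sum is no check of goblet identity. The 14 genes of crypts and proliferation came to 91.7 and 115 CPM, against 349 and 470 CPM in the other cells. Stratified squamous epithelium also makes Tgm3 and Trpv3; of the 8 squamous genes, 5 had no UMI in antibiotic distal colonocytes and 7 had none in germ-free ones.

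The 4 rule genes contributed unequally. Tgm3 was at 996 CPM with antibiotics and 1012 CPM in germ-free distal colonocytes, Fxyd4 at 599 and 507 CPM, Atp12a at 230 and 182 CPM, and Slc37a2 at 158 and 289 CPM. Most cells carried several of them: 81 antibiotic cells had a UMI of all 4 genes, 103 of 3, 114 of 2 and 40 of only 1, and the germ-free numbers were 16, 31, 38 and 14. At an equal depth of 3000 UMI per cell (295 antibiotic and 77 germ-free cells; 43 and 22 shallower cells were left out), Tgm3 was detected in 88.8% and 88.3% of cells, Fxyd4 in 41.7% and 51.9%, Atp12a in 36.9% and 29.9%, and Slc37a2 in 30.2% and 46.8%. Without thinning, Slc37a2 was detected in 55.6% and 53.5%. Of the 4 rule genes Slc37a2 had the largest difference between conditions, 1.83-fold higher in germ-free cells (1.53 to 2.18), at 190, 157 and 147 CPM in antibiotic sets 1, 2 and 3 and 230 and 292 CPM in the germ-free sets 3 and 4. This stayed under the 2-fold limit used below.

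The thresholds cut a gradient. Antibiotic cells with exactly 3 UMI of the rule genes, just inside, had Trpv3 at 91.5 CPM and Ano1 at 549 CPM, and cells with 2 UMI, just outside, had 48.7 and 183 CPM. The germ-free values were 24.6 and 639 CPM inside (18 cells) and 89.4 and 537 CPM outside (24 cells). These cells were shallow, at medians of 1495.5 and 1727.5 UMI, and the Trpv3 values rest on too few UMI to be compared. Ano1 was present on both sides of the limit. A further 136 antibiotic and 13 germ-free cells had 3 or more UMI but under 5 CP10K. Only 5 and 7 cells were kept out by the mucus limit alone.

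Beyond the rule genes, distal colonocytes carried more RNA of some transport, secretory and defence genes than the other cells. At 2-fold or more in both conditions, 111 of 8006 genes (1.39%) were higher in distal colonocytes than in the other cells and 87 (1.09%) were lower. Since the rule chose the cells on values of the same cells, these counts are a description. Ano1, the calcium-activated chloride channel (chromosome 7, 144588549 to 144751974), led after the rule genes when genes were ordered by the smaller of the log2 differences in the 2 conditions (3.56 with antibiotics and 3.18 in germ-free mice). In antibiotic cells alone Sycn was above it, at 4.32, and in germ-free cells alone Aqp8, Prdx6 and Slc15a1 were, at 3.22, 3.22 and 3.18. Ano1 was at 480, 476 and 547 CPM in antibiotic sets 1, 2 and 3 and at 422 and 477 CPM in the germ-free sets 3 and 4, while the other cells had 34.2 CPM with antibiotics and 43.6 CPM in germ-free mice. The proton-coupled peptide transporter Slc15a1 was at 97.1 and 107 CPM against 5.07 and 2.90 CPM. The water channel Aqp8 was at 92.6 and 99.5 CPM against 6.74 and 1.74 CPM. Nt5e, the surface enzyme that makes adenosine from AMP, was at 74.7 and 76.5 CPM against 4.64 and 1.74 CPM.

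Secreted and defence products marked the same cells. Sycn encodes syncollin, a granule protein best known from the pancreas, and stood at 3592 CPM with antibiotics and 1943 CPM in germ-free distal colonocytes against 171 and 432 CPM in the other cells. Saa1, the acute-phase protein serum amyloid A, was at 1305 and 1090 CPM against 288 and 114 CPM. Il18, an inflammasome cytokine, was at 206 and 274 CPM against 37.5 and 51.1 CPM, and Gsdmc4, a gasdermin, at 499 and 583 CPM against 122 and 156 CPM. Prdx6, an antioxidant peroxidase, was at 1842 and 2180 CPM against 389 and 225 CPM, and Ggh, which trims folate polyglutamates, at 639 and 587 CPM against 66.9 and 92.9 CPM. Genes named for other tissues were also among the leading 20: the muscle enolase Eno3 (142 and 101 CPM against 8.08 and 6.39), the slow-muscle troponin Tnni1 (155 and 117 CPM against 29.0 and 14.5) and the myeloid surface antigen Ly6g (31.8 and 40.2 CPM against 0.430 and 1.74), while 5 of 8 immune genes had no UMI in any distal colonocyte. Rdh16, a retinol dehydrogenase, was at 192 and 187 CPM against 41.0 and 20.9 CPM.

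**Figure D2:**
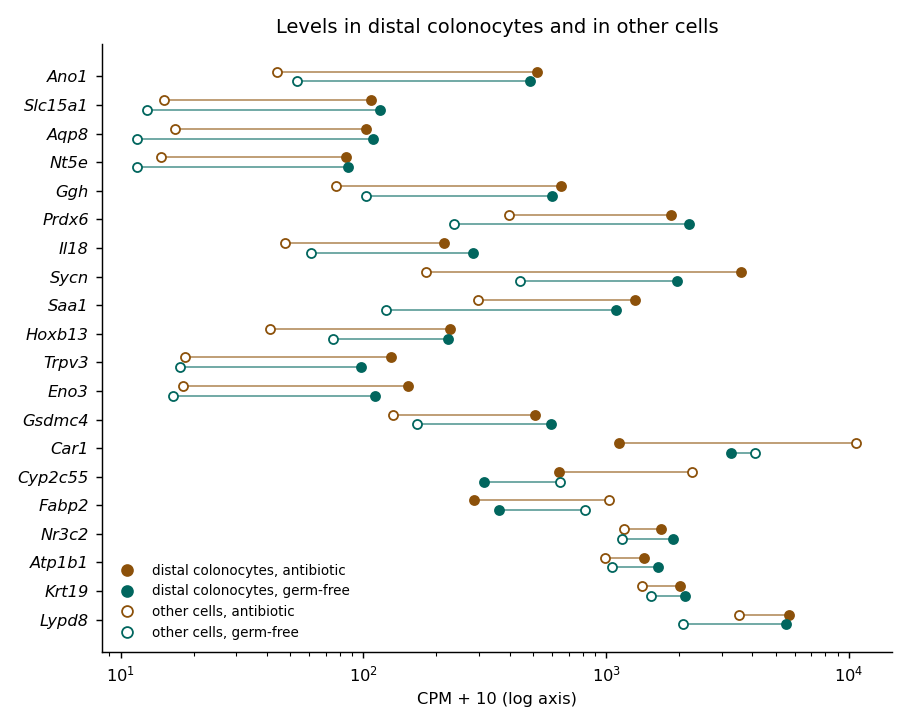
Level of 20 genes in distal colonocytes (filled) and in other cells (open), in antibiotic (brown) and germ-free (green) mice, as CPM + 10 on a log axis. Filled points lie right of open points from Ano1 to Gsdmc4, and left of them for Car1, Cyp2c55 and Fabp2; the Car1 points of germ-free mice lie close together.

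Genes of aldosterone-driven sodium recovery were present, and 2 subunits of its sodium channel were close to 0 in the other cells. Nr3c2, the mineralocorticoid receptor, was at 1679 and 1884 CPM against 1172 and 1148 CPM in the other cells, and the pump subunit Atp1b1 at 1426 and 1630 CPM against 983 and 1051 CPM. The 3 subunits of the epithelial sodium channel were low: Scnn1a was at 72.4 and 42.1 CPM, Scnn1b at 17.9 and 1.91 CPM and Scnn1g at 23.9 and 3.83 CPM. In the other antibiotic cells Scnn1b and Scnn1g were at 0.335 and 0.143 CPM, and no UMI of either was found in the other germ-free cells. Germ-free distal colonocytes held only 1 UMI of Scnn1b and 2 of Scnn1g, which gives antibiotic over germ-free ratios of 9.36 (1.64 to 374) and 6.24 (1.69 to 52.1); both genes were too low to be ranked. Hsd11b2, the enzyme that keeps glucocorticoids off the mineralocorticoid receptor, was at 178 and 93.7 CPM. Of 10 ranked genes of this list, none passed the limits of size and separation between conditions, and their median log2 ratio was -0.14.

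The regional lists were chosen with earlier results of these data known, so their counts are a description and no support for the label. Of 14 measured genes of the posterior and distal colon, 10 had 50 or more UMI in distal colonocytes, the filter that the 8006 genes had passed. Of the 14, 7 were 2-fold or more higher in distal colonocytes than in other cells in both conditions, beside 1.39% of all 8006 genes. They were Hoxb13, Hoxd13 (30.2 and 30.6 CPM against 6.88 and 8.13), Hoxa13 (24.8 and 42.1 CPM against 6.98 and 11.6), Sycn, Prdx6, Ly6g and the claudin Cldn8 (53.0 and 103 CPM against 21.3 and 46.5). Sycn, Prdx6 and Ly6g are also among the leading 20 genes of these same cells. The members of the proximal list did not behave as one group. Cyp2c55, a cytochrome P450, was at 629 and 304 CPM against 2256 and 634 CPM, and Fabp2, a fatty acid binding protein, at 275 and 352 CPM against 1014 and 807 CPM, while Gsdmc4 and the alcohol dehydrogenase Adh1 (328 and 249 CPM against 187 and 177 CPM) were higher in distal colonocytes. At least 5 CP10K of the proximal-list genes Cyp2c55, Adh1 and Mettl7b together was found in 191 of 338 antibiotic (56.5%) and 43 of 99 germ-free (43.4%) distal colonocytes. Of all 2780 antibiotic and 589 germ-free cells under the gene-number and mucus limits, 1592 and 191 lay outside the rule and had as much, with at least 3 UMI. Adh1 was itself higher in distal colonocytes, so this sum does not measure proximal identity. Hoxb13 was at 264 CPM in antibiotic distal colonocytes with this much and 152.5 CPM in those with less. The germ-free values were 206 and 221 CPM.

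The cells varied along a shared axis of surface genes. Such genes were not all higher in distal colonocytes: Krt20 was at 300 and 281 CPM against 571 and 311 CPM in the other cells. Over the 16 measured genes of the surface colonocyte list, the median log2 difference from the other cells was 0.07 with antibiotics and 0.39 in germ-free mice. After thinning to 3000 UMI, Saa1 and Car4, the membrane-anchored carbonic anhydrase, had a Spearman correlation across cells of 0.736 in 295 antibiotic and 0.676 in 77 germ-free cells. Saa1 and the chloride-bicarbonate exchanger Slc26a3 correlated at 0.536 and 0.673, Saa1 and the surface keratin Krt20 at 0.475 and 0.556, and Saa1 and Aqp8 at 0.446 and 0.459. Ano1 ran the other way, with a correlation to Saa1 of -0.34 and -0.33. Fxyd4 stood apart from the surface genes and correlated with Sycn at 0.368 and 0.273 and with Hoxb13 at 0.207 and 0.233. In antibiotic cells Fxyd4 was lower where Cyp2c55 was higher (-0.40), and in germ-free cells the value was 0.0346. Slc37a2 and Atp12a, which give the cells their name, correlated at 0.166 and 0.122. Both genes are part of the sum by which the rule admitted cells, and such a selection can lower correlations among its parts. The values for this pair therefore cannot show how closely Slc37a2 and Atp12a go together. The cells share libraries and counts are sparse, so these values describe the cells and were not tested.

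**Figure D3:**
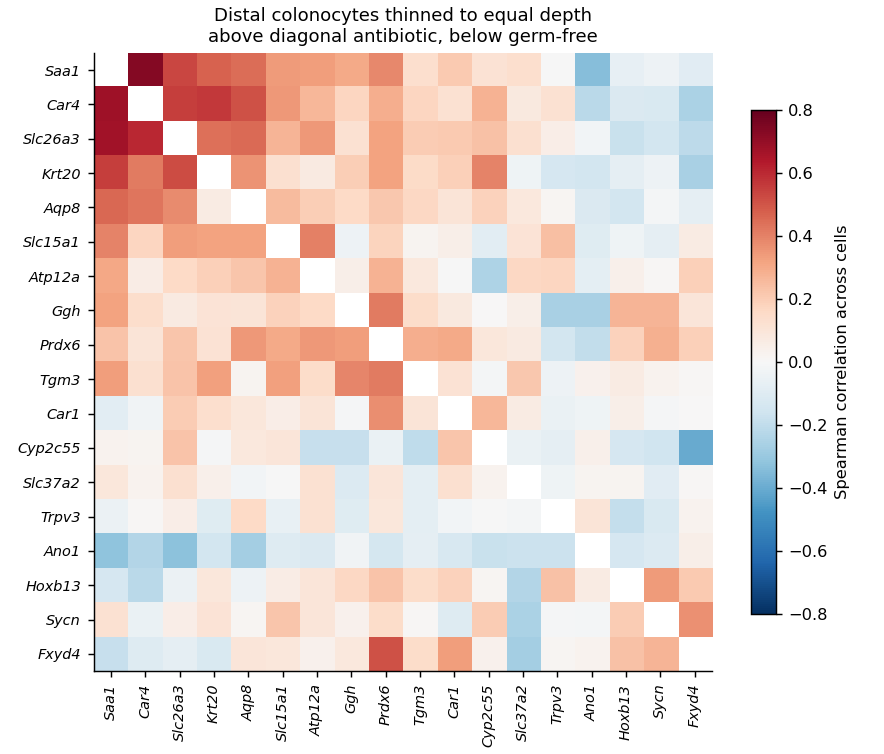
Spearman correlation across distal colonocytes of 18 genes after thinning each cell to 3000 UMI, with 295 antibiotic cells above and 77 germ-free cells below the diagonal. The block at the upper left holds Saa1, Car4, Slc26a3, Krt20 and Aqp8, with values up to 0.736.

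Between the conditions, a small share of genes differed in distal colonocytes. A gene was ranked with at least 50 UMI in distal colonocytes of both conditions together and 50 CPM in the higher condition. It was called when the log2 ratio of CPM + 10, germ-free over antibiotic, was at least 1 in size and the germ-free cell sets with 20 or more distal colonocytes lay above, or below, all antibiotic sets. Germ-free set 3 is too small for that, so a call rests on germ-free set 4. Of 3512 ranked genes, 54 (1.54%) were higher and 60 (1.71%) lower in germ-free cells. Keeping only the deepest copy of each shared barcode gave 57 and 60, with all 54 and 60 among them. Thinning each distal colonocyte to 1000 UMI left 1404 ranked genes, with 46 higher and 58 lower. These held only 13 of the 54 and 25 of the 60 called genes. Mt2, Lgals2, Cyp2c65, Clca4a and Fabp1 (described below) were no longer ranked at that depth. In the other cells of the same pools, 60 of 3615 ranked genes (1.66%) were higher and 72 (1.99%) lower. The split between directions depended on the scaling: with mitochondrial genes left out of the total, or with means over cells in place of sums, 89 and 53, or 125 and 73, genes were called. A total without mitochondrial genes moved the median of all ranked genes from 0.05 to 0.16. Hoxb13 was at 211, 253 and 195 CPM in antibiotic sets 1, 2 and 3 and 307 and 209 CPM in the germ-free sets 3 and 4, a ratio of 0.983 (0.803 to 1.20). Sycn was not called and had a log2 ratio of -0.88, which was -0.23 as a mean over cells.

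Some genes of glycolysis were lower in germ-free distal colonocytes. Of 10 ranked genes of glycolysis and hypoxia, 3 were called lower and none higher, beside 1.71% lower over all ranked genes. The median log2 ratio was -0.54 (-0.45 in the other cells), beside 0.05 over all ranked genes. Hk2, the hexokinase that traps glucose in the cell (chromosome 6, 82725025 to 82774454), was at 575, 932 and 732 CPM in antibiotic sets 1, 2 and 3 and at 115 and 260 CPM in the germ-free sets 3 and 4. The groups did not overlap, and germ-free cells had 3.08-fold less (2.59 to 3.69). In the other cells of these pools Hk2 was at 492 and 218 CPM, so distal colonocytes were above the other cells in antibiotic mice (777 against 492 CPM) and near them in germ-free mice (253 against 218 CPM). Gapdh, which acts midway through glycolysis, was at 660, 907 and 779 CPM with antibiotics and 230 and 391 CPM in the germ-free sets, and Eno1, a late glycolytic enzyme, was at 117 and 47.8 CPM. Both were lower in the other germ-free cells too, where Gapdh was at 609 and 222 CPM and Eno1 at 81.1 and 26.7 CPM. Gapdh has many processed copies in the genome, and its count could be shared with them. Ldha, which makes lactate, did not reach the limit, at 726 and 616 CPM. Hif1a, the oxygen-sensing factor, was at 385 and 231 CPM in distal colonocytes and at 84.9 and 86.5 CPM in the other cells.

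The epidermis-type barrier list gave a split picture. Of its 13 ranked genes, 3 were called lower in germ-free cells and none higher, with a median of -0.13. Over all ranked genes 1.71% were called lower. The called genes include the tissue kallikrein Klk1 (described below), so the calls are not of skin genes alone. Sprr1a, a small proline-rich protein of the cornified envelope, had 316 UMI in antibiotic distal colonocytes (43.5, 92.8 and 43.6 CPM by set) and none in germ-free ones. This was 10.6-fold lower against a floor of 3 UMI over the condition, and the lower interval limit of the ratio was 8.58. Cells near the threshold of the rule held 223 of the 316 UMI: Sprr1a was at 130 CPM in antibiotic cells with 5 to 10 CP10K of the rule genes, 39.9 CPM at 10 to 20 and 15.8 CPM at 20 or more. With at least 5 UMI and 10 CP10K it was at 27.1 CPM, too low to be ranked, and was 3.09-fold lower against a floor of 3 UMI. In the other cells Sprr1a was at 77.8 and 28.5 CPM. Sprr2a2 was at 60.3 and 5.74 CPM, the latter from 3 UMI, a ratio of 10.5 (3.56 to 51.2). Its near-identical neighbour Sprr2a3 was at 273 and 312 CPM, so reads of this cluster may be split between copies and both values are uncertain. Klk1, tissue kallikrein, a serine protease that releases kinins (chromosome 7, 44225360 to 44229618), was at 893, 1304 and 1026 CPM in antibiotic sets and 461 and 431 CPM in the germ-free sets, 2.55-fold lower (2.23 to 2.92), and at 297 and 220 CPM in the other cells. Tgm3, Dsp and Dsg2, the last 2 of them parts of desmosomes, had log2 ratios of 0.02, -0.13 and -0.11.

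**Figure D4:**
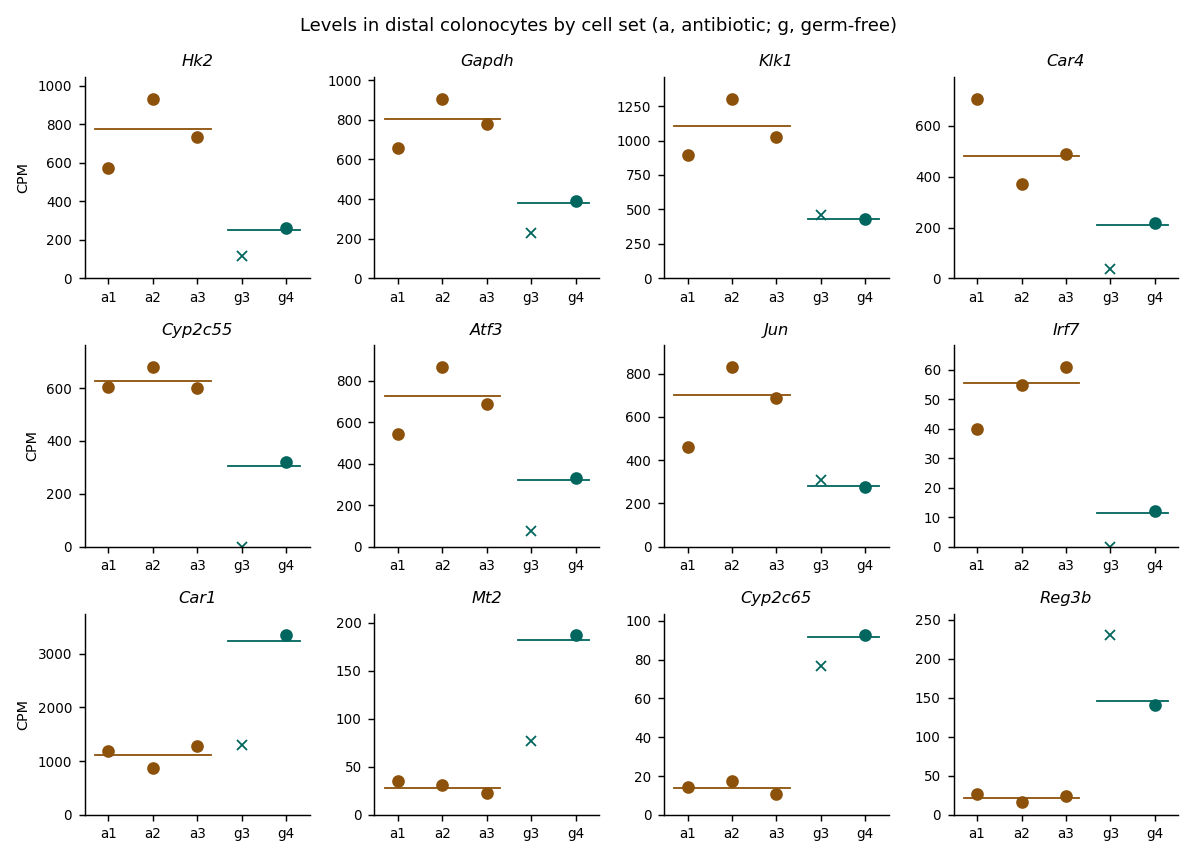
CPM of 12 genes in distal colonocytes of antibiotic sets 1 to 3 (a1 to a3) and germ-free sets 3 and 4 (g3, a cross since it holds 17 cells, and g4), with the level of each condition as a line. Hk2, Gapdh, Klk1, Car4, Cyp2c55, Atf3, Jun and Irf7 are lower in germ-free sets, and Car1, Mt2, Cyp2c65 and Reg3b higher in germ-free set 4.

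Some immediate-early genes, which cell dissociation is known to induce, were lower in germ-free distal colonocytes. Of 12 ranked genes of this list, 4 were called lower and none higher, beside 1.71% lower over all ranked genes. The median was -0.67 (-0.30 in the other cells). Atf3, a stress-induced factor, was at 541, 866 and 686 CPM in antibiotic sets and 76.8 and 332 CPM in the germ-free sets. Fosb was at 193 and 55.5 CPM, Jun at 701 and 279 CPM and Jund at 706 and 312 CPM, all subunits of the AP-1 factor. In the other cells Atf3 was at 687 and 573 CPM, Jun at 879 and 508 CPM and Jund at 581 and 245 CPM. The abundant members Fos (644 and 449 CPM) and Btg2 (479 and 536 CPM, a log2 ratio of 0.16) were not called. Outside the list, Nr4a1, an early-response nuclear receptor, was at 99.0 and 30.6 CPM, and Edn1, the peptide endothelin, at 169 and 55.5 CPM. The share of this difference that arose during dissociation was not tested.

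Some interferon response genes were also lower. Of 5 ranked interferon response genes, 2 were called lower, beside 1.71% over all ranked genes, and the median was -0.55 (-0.66 in the other cells). Irf7, the factor that amplifies the type I interferon response, was at 39.9, 54.9 and 60.9 CPM in antibiotic sets and at 12.1 CPM in the germ-free set 4, with no UMI in set 3. Irf1 was at 68.2 and 24.9 CPM. The most abundant member, Ifi27l2b, was not called, at 206 and 138 CPM. Among unranked members, the antiviral gene Ddx60 was at 41.2 and 7.65 CPM and Oasl2 at 33.3 and 9.56 CPM. Single genes outside the list were lower as well: Nfkbia, the inhibitor that NF-kappaB induces, was at 204 and 59.3 CPM, Stat3, which carries cytokine signals, at 141 and 57.4 CPM, and Cd55, which shields cells from complement, at 273 and 105 CPM. Antigen presentation genes were not called: H2-K1 was at 343 and 249 CPM, and the median of the 5 ranked genes was -0.26.

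Several other lower genes had like differences in the other cells. Il31ra, a cytokine receptor subunit, was at 450 and 68.8 CPM in distal colonocytes and 542 and 87.1 CPM in the other cells. The actin-binding peptide Tmsb10 was at 187 and 49.7 CPM against 571 and 127 CPM, and Taco1, an activator of mitochondrial translation, at 80.9 and 17.2 CPM against 206 and 43.6 CPM. Cmss1 (10458 and 2854 CPM) and Cdk8 (2567 and 562 CPM) differed together with Gm42418, a locus rich in ribosomal RNA, which took most of the 10.9% and 5.48% of UMI given above. Clca4a, of a family of chloride channel regulators, was at 69.1 and 15.3 CPM, and without the cells near the threshold its log2 ratio was -0.49.

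Regional and absorptive genes moved in both directions. Among carbonic anhydrases, Car4 was at 707, 370 and 488 CPM in antibiotic sets and 38.4 and 219 CPM in the germ-free sets, 2.29-fold lower (1.89 to 2.80), and at 221 and 56.3 CPM in the other cells. Its log2 ratio of -1.16 fell short of the limit as a mean over cells (-0.72) and in cells thinned to 1000 UMI (-0.98). Cyp2c55 was at 605, 680 and 599 CPM and at 320 CPM in the germ-free set 4, with no UMI in set 3, and its difference in the other cells was -1.82. Its log2 ratio of -1.02 is close to the limit and fell short of it without mitochondrial genes in the total (-0.92), at a mucus limit of 10 CP10K (-0.86), in cells with at least 1000 UMI and at most 15% mitochondrial UMI (-0.74), without antibiotic set 2 (-0.96) and without germ-free set 3 (-0.95). Cyp2c55 was most abundant near the threshold of the rule, at 1136 and 807 CPM at 5 to 10 CP10K of the rule genes and at 200.5 and 95.9 CPM at 20 or more. In cells with under 5 CP10K of proximal genes the log2 ratios were closer to 0, at -0.32 for both Car4 and Cyp2c55. Car2 was at 993 and 1228 CPM and was not called. The related enzyme Cyp2c65 went the other way, at 14.5, 17.6 and 10.6 CPM in antibiotic sets and 76.8 and 92.6 CPM in the germ-free sets.

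Some genes higher in germ-free distal colonocytes were more abundant in the other cells of both conditions. Car1, the abundant cytosolic carbonic anhydrase (chromosome 3, 14766216 to 14808368), was at 1194, 869 and 1284 CPM in antibiotic sets and 1306 and 3347 CPM in the germ-free sets, while the other cells had 10734 and 4109 CPM. Distal colonocytes were thus below the other cells by a log2 value of -3.24 in antibiotic and -0.34 in germ-free mice. Cyp2c65 was at 13.7 and 91.8 CPM against 290 and 284 CPM. Reg3b, an antimicrobial lectin, was at 26.6, 16.5 and 24.0 CPM in antibiotic sets and 230 and 141 CPM in the germ-free sets, against 250 and 239 CPM in the other cells. The gap between distal colonocytes and the other cells was smaller in germ-free than in antibiotic mice for each of these 3 genes.

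For Car1 this difference lay in cells near the threshold of the rule. In distal colonocytes with 5 to 10 CP10K of the rule genes, the level of Car1 was 972 CPM over 99 antibiotic cells and 8058 CPM over 21 germ-free cells, and 1 germ-free cell held 34.8% of the latter UMI. At 10 to 20 CP10K it was at 982 and 609 CPM, and at 20 CP10K or more at 1378 and 1547 CPM. With a stricter rule (5 UMI and 10 CP10K, 215 and 61 cells) the log2 ratio of Car1 went from 1.52 to 0.01 and that of Cyp2c65 from 2.10 to 0.96. Reg3b kept its difference there, at 20.7 and 137 CPM, and so did Hk2 (734 and 248 CPM), Klk1 (1104 and 476 CPM) and Car4 (541 and 245 CPM). Under this rule 52 genes were higher and 63 lower, and they held 35 of the 54 and 45 of the 60 called genes.

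**Figure D5:**
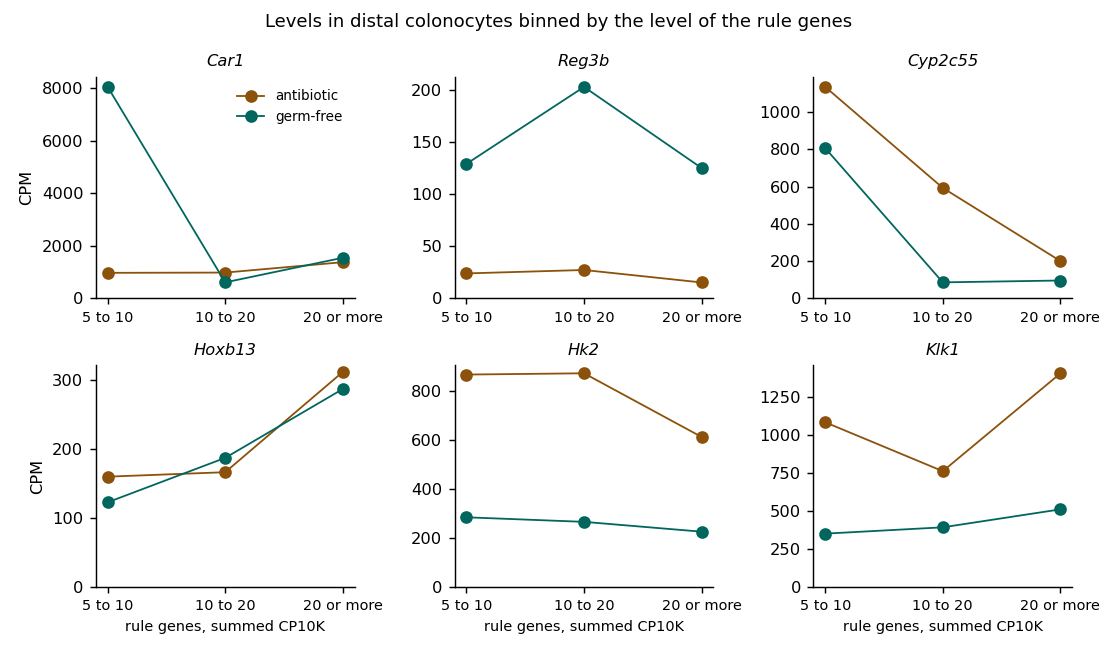
CPM of 6 genes in distal colonocytes binned by their summed level of the 4 rule genes (horizontal axis, CP10K), in antibiotic (99, 116 and 123 cells) and germ-free mice (21, 26 and 52 cells). Car1 differs most between conditions in the lowest bin, whereas in all bins Reg3b is higher, and Hk2 and Klk1 are lower, in germ-free cells.

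Both metallothioneins and the lipid-binding Fabp1 were also higher. Mt2, a metallothionein that binds zinc and copper, was at 35.0, 30.7 and 23.2 CPM in antibiotic sets and 76.8 and 187 CPM in the germ-free sets, 6.55-fold higher (5.0 to 8.55), and at 74.1 and 236 CPM in the other cells. Mt1 was at 561 and 1209 CPM. Of 16 ranked genes of PPAR signalling and fatty acid oxidation, 1 was called higher (Fabp1) and none lower, with a median of 0.16. Over all ranked genes 1.54% were called higher. Fabp1, the liver-type fatty acid binding protein, was at 56.6 and 195 CPM and at 57.5 and 258 CPM in the other cells; its log2 ratio of 1.62 was 0.55 in cells with at least 1000 UMI and at most 15% mitochondrial UMI. The mitochondrial enzymes of the list were not called: Cpt1a was at 133 and 136 CPM and Acadvl at 67.0 and 63.1 CPM. Sult1d1, a sulfotransferase, was at 239 and 543 CPM, and Tfrc, the transferrin receptor that brings iron into the cell, at 100.3 and 266 CPM.

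Further higher genes are known from other cell types or from the small intestine, and were also present in the other germ-free cells. They were grouped after their values were seen, and small-intestine genes did not all differ: Fabp6 was at 70.3 and 63.1 CPM, Apoa1 at 13.3 and 17.2 CPM and Apoa4 at 10.6 and 5.74 CPM. Gip, an incretin hormone of enteroendocrine cells, had 105 UMI in germ-free distal colonocytes and none in antibiotic ones (201 CPM and 0), and was at 232 CPM in the other germ-free cells. In distal colonocytes Gip was 348-fold higher against a floor of 3 UMI, and the lower interval limit of its ratio was 278. Gip was detected in 62.6% of germ-free distal colonocytes and 54.0% of the other germ-free cells, at median depths of 4952 and 2874 UMI (the latter over all germ-free cells). The part of free RNA in these shares was not tested. The other 9 enteroendocrine genes summed with Gip to 226 CPM. Reg1 was at 26.4 and 168 CPM in distal colonocytes and 30.6 and 192 CPM in the other cells, the Paneth cell defensin Defa30 at 4.81 and 63.1 CPM against 18.0 and 54.0 CPM, and the crypt gene Olfm4 at 9.63 and 65.0 CPM against 15.3 and 121 CPM. In cells with at least 1000 UMI and at most 15% mitochondrial UMI (196 and 23 cells) the log2 ratio of Olfm4 went from 1.93 to 0.53 and that of Defa30 was 1.34, and neither was ranked. Reg3g was at 7.51 and 68.9 CPM against 21.8 and 102 CPM, and the galectin Lgals2 at 24.1 and 142 CPM against 34.3 and 169 CPM. Pard3bos1 (6.16 and 136 CPM) and Fgfr2 (68.2 and 321 CPM) overlap the genes Pard3b and Dmbt1 on the opposite strand, and the sources used here do not say whether counting used strand, so their values are uncertain. Lrp1b, a receptor of the LDL receptor family, was at 8.28 and 88.0 CPM against 9.65 and 101 CPM.

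Other lists held single calls, beside 1.54% higher and 1.71% lower over all ranked genes. Of 12 ranked genes of xenobiotic metabolism, Cyp2c65 was higher and Cyp2c55 and Gstp1 were lower, with a median of -0.16 (-0.65 in the other cells). Gstp1, a glutathione transferase, was at 63.0 and 17.2 CPM against 110 and 15.1 CPM, and its reads may be shared with its neighbour Gstp2. Of 10 ranked antimicrobial and defence genes, Reg3b and Reg3g were higher and none was lower, with a median of 0.20; Pigr, the receptor that carries antibodies into the lumen, was at 1519 and 2001 CPM. Of 8 ranked genes of chloride and bicarbonate transport, Clca4a was lower and none higher, with a median of 0.04, and of 3 ranked carbonic anhydrases 1 was higher (Car1) and 1 lower (Car4).

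Several lists had no call. None of 15 ranked surface colonocyte genes, 11 claudin and tight junction genes, 12 genes of cholesterol synthesis, 6 membrane mucin and glycosylation genes or 6 genes of short-chain fatty acid and sugar phosphate transport was called in either direction, with medians of -0.15, -0.18, -0.12, -0.20 and 0.00. Among them Lypd8, a surface protein that keeps bacteria off the epithelium, was at 5674 and 5472 CPM, and Krt8 at 2841 and 3188 CPM. Muc13, a membrane mucin, was at 1703 and 1197 CPM, and Cldn7, a claudin, at 1637 and 983 CPM. The series title concerns nicotinic acid. Of 5 ranked genes of nicotinic acid uptake and NAD, none was called and the median was 0.33. Among them Slc5a8, the transporter that takes up nicotinic acid and short-chain fatty acids, was at 127, 152 and 129 CPM in antibiotic sets and 576 and 213 CPM in the germ-free sets. Cd38, an enzyme that consumes NAD, was at 152 and 210 CPM. Naprt, the first enzyme of NAD synthesis from nicotinic acid, was too low to be ranked, at 46.6 and 30.6 CPM. Hcar2, the nicotinic acid receptor, had 1 UMI in antibiotic and none in germ-free distal colonocytes.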

How the data were processed

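The labels list 13 libraries, of which 5 hold cDNA (10x Chromium 3' kit; 3 antibiotic, 2 germ-free) and 8 hold sample barcodes, which were not used here. The matrix that the authors deposited holds a natural log value for each of 32285 genes in each of 4183 cells. The submitters' processing notes name the mm10 build, kallisto, bustools and Cell Ranger 7.0.0, with no roles. Undoing the log (exponential minus 1) gave levels that sum to 10000 per cell, and 100% of nonzero levels were whole multiples (within 0.01) of the lowest one in their cell. These multiples were taken as UMI.

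From these, UMI were summed over distal colonocytes per condition (5192529 antibiotic, 522851 germ-free) and per cell set and scaled by total UMI to CPM, with Python 3.11.15 and SciPy 1.17.1. Log2 ratios are of CPM + 10 and understate changes of low genes. CPM have Poisson, ratios conditional binomial and shares Clopper-Pearson intervals. Germ-free cell set numbers (3 and 4) do not equal the labels' library numbers, so cells were assigned to conditions. Scrublet in Scanpy 1.11.5 marked 17 of 4183 cells as doublets, 2 of them germ-free distal colonocytes, and none was removed. The calling steps were tested on simulated data. Coordinates are from GENCODE vM21.

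The members, gene lists and tests were chosen with earlier results of these data known. Most genes named are among the 12 called genes with the largest change in each direction (leaving out ribosomal protein, mitochondrial, Xist, Y and unnamed genes), the rule genes and Trpv3, up to 4 genes of each list with the highest CPM, and the 20 genes with the largest difference from other cells. Others, such as Fabp1, Gstp1, Fabp6, Mt1, Jun, Eno1, Irf1, Hif1a, Cd55, Stat3, Nr4a1, Edn1, Sult1d1, Tfrc and the Scnn1 genes, were named after their values were seen. Results for 2 genes are not reported here, and 1 of them was left out of its gene list. Alternatives covered the pseudocount, filters on genes and cells, scaling, depth, the rule and each cell set, and 4 were chosen after seeing the data.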

Additional observations from a re-analysis of the deposited data

Results flagged for a closer look

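Car1 had opposite condition differences in the 2 kinds of cells of these pools. Its log2 ratio, germ-free over antibiotic, was 1.52 in distal colonocytes (1124 and 3246 CPM), and -1.38 in the other cells (10734 and 4109 CPM). The germ-free cell set that could be compared lay above every antibiotic set in distal colonocytes, and the difference between the 2 kinds of cells was not tested, since each condition is 1 pool. With at least 5 UMI and 10 CP10K of the rule genes the value in distal colonocytes was 0.01, and without germ-free cell set 4 it was 0.21. In distal colonocytes with under 5 CP10K of proximal genes it was 1.25.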

How the results depend on the processing

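No paired analysis was possible because each condition was 1 pool, no test was made, and the numbers of the germ-free cell sets are not those of the labels. Against 54 genes higher and 60 lower, a filter of 1 UMI gave 151 and 127, a filter of 200 UMI 29 higher, a total without mitochondrial genes 89 higher, means over cells 125 higher, cells with at least 1000 UMI and at most 15% mitochondrial UMI 106 and 101, cells with under 5 CP10K of proximal genes 217 and 191, and those with more 88 and 95. Leaving out 1 cell set gave 51 to 74 higher and 58 to 68 lower; without germ-free set 4 no gene can be called. Against shares of 9.90% (antibiotic) and 12.9% (germ-free), thinning to 1000 UMI gave 3.60% and 6.40%, the denominator of cells under the limits 12.2% and 16.8%, and the stricter rule 6.30% and 7.94%. The antibiotic share was 8.87% without Fxyd4 in the rule and 11.4% with the deepest copy of each barcode. The germ-free share was 17.7% without set 3 and 5.56% without set 4. Leaving out 1 cell set gave log2 ratios of -0.57 to 2.56 for Defa30, -1.77 to 2.49 for Lgals2 and -0.97 to 2.04 for Olfm4, the lowest of each without germ-free set 4, which leaves 17 shallow cells. In cells with at least 1000 UMI and at most 15% mitochondrial UMI, Fabp1 was at 0.55, Olfm4 at 0.53 and Defa30 at 1.34. The causes were not tested.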
